A study of Zea mays with 12 samples.

Results

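Potassium deficiency was compared with the control supply in roots of 40-day-old maize (Zea mays) of DengHai605, labelled as an inbred line. The comparison rests on 6 RNA sequencing libraries, 3 from plants labelled potassium deficient and 3 from control plants, out of 12 libraries in the series. The other 6 libraries, 3 from nitrogen-deficient and 3 from phosphorus-deficient roots of the same line and age, enter only where a potassium value is set directly against them. The unit of every level is FPKM, the abundance of sequenced fragments scaled by transcript length and by library size. Genes with at least 0.5 FPKM in at least 3 of the 6 libraries were tested, which were 23349 of 37385 genes listed. Replicates of each treatment are called 1_3, 4_6 and 7_9 after their labels, which do not tie them to separate plants, so p-values measure only the spread between these libraries, which may be technical. In bulk roots, fewer cells of a type and less RNA per cell cannot be told apart.

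Potassium is the most abundant cation of plant cells, where it carries turgor, membrane potential and enzyme activation, and it is not built into organic molecules. Roots take it up through high-affinity HAK/KUP transporters and Shaker-type channels such as AKT1, release it into the xylem through outward channels such as SKOR, and recirculate it from the shoot through AKT2-type channels in the phloem. In Arabidopsis, calcium-sensing CBL proteins and their CIPK kinases switch on AKT1 and HAK5 at low external potassium.

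The recovered read totals were 17843853 to 18465979 per control library and 17229281 to 18398299 per potassium-deficient library. Correlations of log2(FPKM + 1) between libraries of the same group were 0.961 to 0.975, against 0.918 to 0.953 between groups. The first principal component held 54.1% of the variance and separated the groups, with potassium-deficient libraries at 35.07 to 45.28 and control libraries at -53.57, -48.04 and -20.76. Control replicate 7_9 was therefore the control library nearest to the potassium-deficient ones. Of 18 root marker genes listed, 1 was at 0 in all 6 libraries. Their summed level was 676 to 963 FPKM in control and 1365 to 1624 in potassium deficiency. The most abundant of them, gpm747, alone averaged 530 FPKM over the 6 libraries. Of 56 leaf markers, 20 stayed below 0.5 FPKM in every library, 5 of them at 0, and the sum was 208 to 295 FPKM in control and 143 to 204 in potassium deficiency. Of 61 seed markers, 22 were at 0, with sums of 782 to 862 and 862 to 981 FPKM. Of 65 pollen and flower markers, 14 were at 0, with sums of 1217 to 1639 and 1378 to 1571 FPKM.

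Potassium deficiency changed 1606 of 23349 genes (6.88%) at a Benjamini-Hochberg adjusted p under 0.05 in limma. Of these, 874 were higher (3.74% of tested genes) and 732 were lower (3.14%). All counts for lists, annotations and pathways below stand beside these shares, and none of those groups was tested as a set. The median change over all tested genes was 0.07 on the log2(FPKM + 1) scale. The median fold was 2.31 among the higher genes, of which 141 reached 4-fold and 29 reached 10-fold. Among the lower genes the median fold was 2.69, with 238 at 4-fold or more and 95 at 10-fold or more. Of all tested genes, 17.0% had every potassium-deficient library above every control library and 11.3% had every one below, and none of the 1606 genes that passed overlapped between the groups.

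In summed FPKM the lower genes lost more than the higher genes gained. Together the 732 lower genes held 7.73 to 11.8% of the FPKM of a control library and 2.53 to 2.89% of a potassium-deficient library. The 874 higher genes went from 2.68 to 3.16% of the FPKM in control to 6.19 to 7.05% in potassium deficiency. The number of calls depended on the set of libraries. It was 530 without control replicate 1_3 (233 higher, 297 lower) and 1820 without control replicate 7_9 (1153 higher, 667 lower). Without control replicate 4_6 it was 418 higher and 534 lower. Without potassium-deficient replicate 1_3, 4_6 or 7_9 it was 311, 424 or 306 higher and 366, 360 or 335 lower. A set of 180 higher and 254 lower genes passed whichever of the 6 libraries was left out, and such genes are called stable below. With voom on the recovered reads the split was 857 higher and 1115 lower, so the share of higher genes was 43.5% in place of 54.4%. Median-ratio scaling of the FPKM gave 807 higher and 875 lower, with a median log2 change over all genes of 0.001. The authors' deposited table gave 731 and 912. Which direction held more genes therefore depended on the processing.

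**Figure D1:**
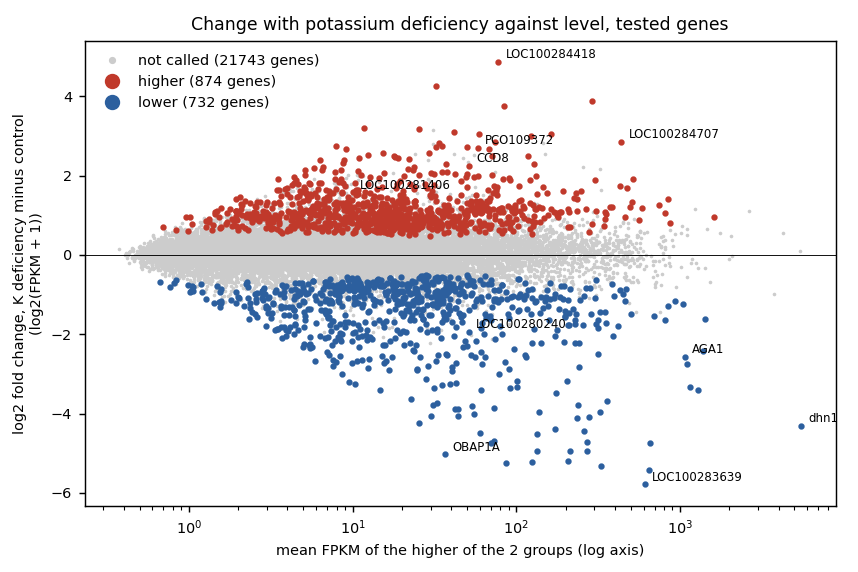
Log2 fold change of each tested gene (vertical axis, log2(FPKM + 1), potassium deficiency minus control) against its mean FPKM in the higher of the 2 groups (horizontal log axis), with 874 higher genes in red, 732 lower genes in blue and 21743 others in grey. The lower genes reach larger changes at high levels, with dhn1 at the far right, than the higher genes do.

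Among potassium transporters and channels, 5 of 27 tested members rose and none fell, beside 3.74% higher and 3.14% lower over all tested genes. The median log2 change was 0.02 over the list against 0.07 over all genes. Of 35 members listed, 8 did not reach the level needed for testing. The list was matched by name, and its counts include members that are not transporters, such as the tetramerization-domain protein pco073813. The clearest member was the AKT2/3-type channel LOC100281406, of the family that carries potassium in the phloem. Its level was 2.33, 3.09 and 2.74 FPKM in control and 9.41, 10.3 and 10.5 in potassium deficiency. Every potassium-deficient library stood far above every control library. The log2 change was 1.58 ± 0.14 (SE, adjusted p = 0.00282), and this was the only member of the list that was stable.

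The uptake transporter gene HAK20, described as potassium transporter 19-like, was at 2.14, 2.67 and 2.43 FPKM in control and at 11.6, 5.22 and 6.44 in potassium deficiency. The highest value stood in replicate 1_3, and the others were close to each other (log2 change 1.30 ± 0.26, adjusted p = 0.0315). The outward channel SKOR, LOC100279230, was at 1.33, 1.74 and 3.61 FPKM in control and 4.89, 6.16 and 9.05 in potassium deficiency, highest in replicate 7_9 of each group (log2 change 1.28 ± 0.30, adjusted p = 0.0494). HKT1, a sodium transporter of the HKT family, went from a mean of 2.57 ± 0.38 to 5.15 ± 0.58 FPKM (SD, n = 3, adjusted p = 0.0251). HAK17, a high-affinity transporter, went from 3.19 ± 0.28 to 5.32 ± 0.62 FPKM (SD, n = 3, adjusted p = 0.0496).

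These smaller changes rested on the full set of libraries. HAK17 passed in none of the 6 fits that leave out a library. LOC100279230 passed only in the fit without control replicate 7_9, HAK20 only in those without potassium-deficient replicate 1_3 or 4_6, and HKT1 only in those without control replicate 4_6 or 7_9. The adjusted p then reached 0.109 for HAK20, 0.153 for LOC100279230, 0.0984 for HKT1 and 0.177 for HAK17. HAK17 and LOC100279230 also missed the threshold after median-ratio scaling of the libraries. HKT1 missed it in the fit of all 12 libraries and by voom, and HKT1 and HAK17 in the authors' deposited table. HAK20, HAK17 and LOC100279230 missed it without a filter on low values and with a pseudocount of 10. With a replicate block in the model HAK20, HAK17 and HKT1 missed it.

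The other members of the list did not pass. HAK24 was at 9.65, 8.57 and 6.33 FPKM in control and 5.60, 3.76 and 2.97 in potassium deficiency, without overlap (log2 change -0.86 ± 0.23, adjusted p = 0.0727). The channel K2, also called ZMK2, was at 2.04, 1.44 and 1.49 FPKM in control and 2.79, 6.24 and 3.07 in potassium deficiency (adjusted p = 0.102), and HAK7 was at 5.08 ± 0.78 and 8.86 ± 2.43 FPKM (SD, n = 3, adjusted p = 0.0969). The most abundant potassium transporter, HAK10, was at 77.1, 81.0 and 72.1 FPKM in control and 59.1, 61.2 and 62.2 in potassium deficiency (adjusted p = 0.165). The summed level of the 35 listed members was 310.2 to 337.2 FPKM in control and 305.0 to 311.4 in potassium deficiency.

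**Figure D2:**
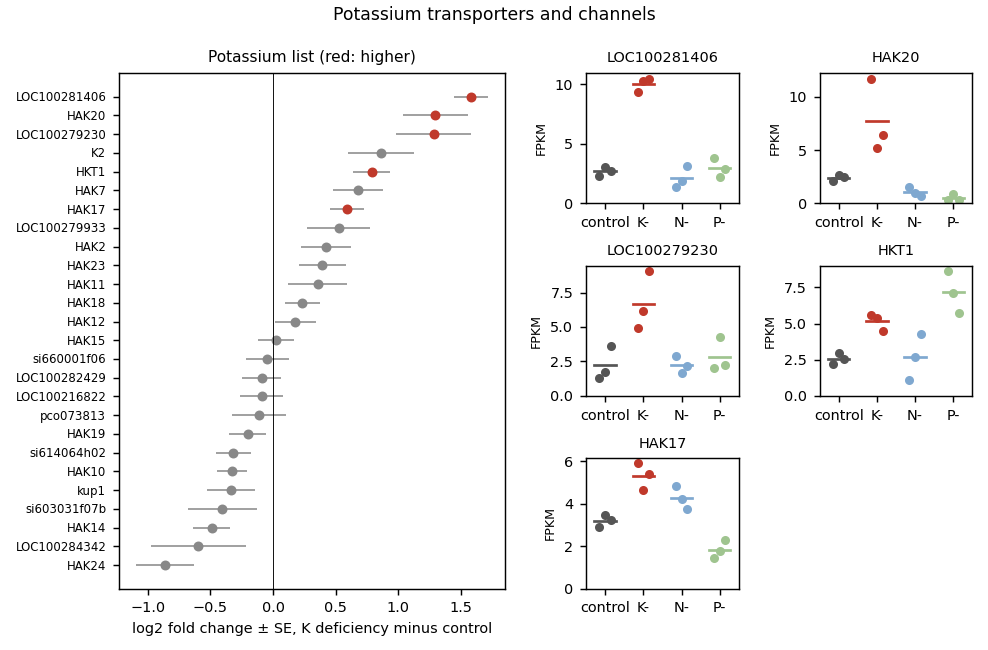
Left, log2 fold change with its SE for the 26 tested members of the potassium list that are described as a transporter, channel or permease, red where higher in potassium deficiency. Right, FPKM in each library (points) and group mean (bars) of the 5 higher members in the 4 treatments; LOC100281406 and HAK20 lie above the nitrogen-deficient and phosphorus-deficient libraries as well as above the control.

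Set directly against the other deficiencies, LOC100281406 stood at 10.1 ± 0.58 FPKM (SD, n = 3) in potassium deficiency, 2.11 in nitrogen deficiency and 2.99 in phosphorus deficiency. The adjusted p of potassium against nitrogen deficiency was 0.000249 and against phosphorus deficiency 0.00223 (limma, 12 libraries). HAK20 was likewise above nitrogen deficiency (1.05 FPKM, adjusted p = 0.000646) and phosphorus deficiency (0.495 FPKM, adjusted p = 0.000454). HKT1, in contrast, was at 7.14 FPKM in phosphorus deficiency, and its difference from potassium deficiency did not pass (log2 difference -0.40, adjusted p = 0.366).

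No CBL or CIPK gene of low-potassium signalling passed as higher. Of 33 tested members 1 was lower, with a median log2 change of -0.03. So few calls lie near the shares over all tested genes, 3.74% higher and 3.14% lower. The lower gene was the CBL-interacting kinase LOC100382328, at 18.3, 21.3 and 13.3 FPKM in control and 6.10, 9.60 and 8.67 in potassium deficiency (adjusted p = 0.0386). With a library left out it passed only where that was control replicate 7_9, with an adjusted p of up to 0.130 in the other fits, and it missed the threshold after median-ratio scaling. The gene described as CIPK23, pco144723, named like the kinase that activates AKT1 in Arabidopsis, was at 170, 161 and 155 FPKM in control and 101, 110 and 119 in potassium deficiency. All its potassium-deficient values lay below all its control values, and the test was just missed (log2 change -0.56 ± 0.14, adjusted p = 0.0588).

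The genes that rose most were of diverse annotation. LOC100284418, described as a ubiquitin family member, was nearly silent in control at 0.691, 4.29 and 0.791 FPKM and reached 41.9, 97.7 and 93.5 in potassium deficiency. This is a 40.4-fold difference of the means (log2 change 4.87 ± 0.50, adjusted p = 0.00388). LOC103641937, annotated as a xenobiotic-transporting ATPase of the ABC class, went from 0.159, 0.393 and 0.629 FPKM to 12.1, 10.6 and 12.6, and its 3 potassium-deficient libraries were closely alike (log2 change 3.20 ± 0.17, adjusted p = 0.00107). The zinc finger protein LOC100277313 went from 4.75, 3.11 and 3.43 to 41.5, 57.8 and 25.6 FPKM (adjusted p = 0.00293). All of them were stable.

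The elongation factor 1-alpha gene LOC100284707, which delivers aminoacyl-tRNA to the ribosome, was at 52.4, 62.1 and 65.6 FPKM in control and 430, 406 and 476 in potassium deficiency. Its mean was 75.8 FPKM in nitrogen deficiency and 81.6 in phosphorus deficiency, so the high level stood in the potassium-deficient libraries alone among the 12 (log2 change against control 2.85 ± 0.16, adjusted p = 0.00107). Elongation factor 1-alpha and ubiquitin belong to families with near-identical copies, and no source used here gives how reads shared between copies, or from opposite strands, were counted. Of 264 cytosolic ribosomal protein genes tested none was higher and 1 was lower. In the pathway Aminoacyl-tRNA biosynthesis 3 of 60 genes were higher (5.0%, against 3.74% over all tested genes) and none was lower.

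Further strongly raised genes were the gene LOC100283217, described as ATFP4 (4.23 ± 1.95 to 32.4 ± 4.89 FPKM), the WAT1-related transporter gene LOC100274152 (6.69 ± 1.19 to 50.4 ± 9.83) and the gene LOC100125656, described as PL3K2 (5.38 ± 2.61 to 84.3 ± 34.0), all means with SD over 3 libraries. Each was stable, at an adjusted p of 0.00298, 0.00206 and 0.00452. Their levels in the other deficiencies varied: LOC100274152 was at 75.3 FPKM in nitrogen deficiency, and LOC100125656 at 70.3 FPKM in phosphorus deficiency. The blue copper protein LOC100280489 (0.417, 1.67 and 2.01 FPKM in control, 8.28, 52.4 and 15.7 in potassium deficiency) and the glycosyltransferase LOC100382065 (0.467, 0.765 and 1.76, then 4.52, 23.9 and 9.05) were highest in potassium-deficient replicate 4_6. Neither passed without control replicate 1_3, control replicate 4_6 or potassium-deficient replicate 7_9, with an adjusted p of up to 0.0951 and 0.116. Both also missed the threshold in the authors' deposited table, by voom, without a filter on low values and with a pseudocount of 10.

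**Figure D3:**
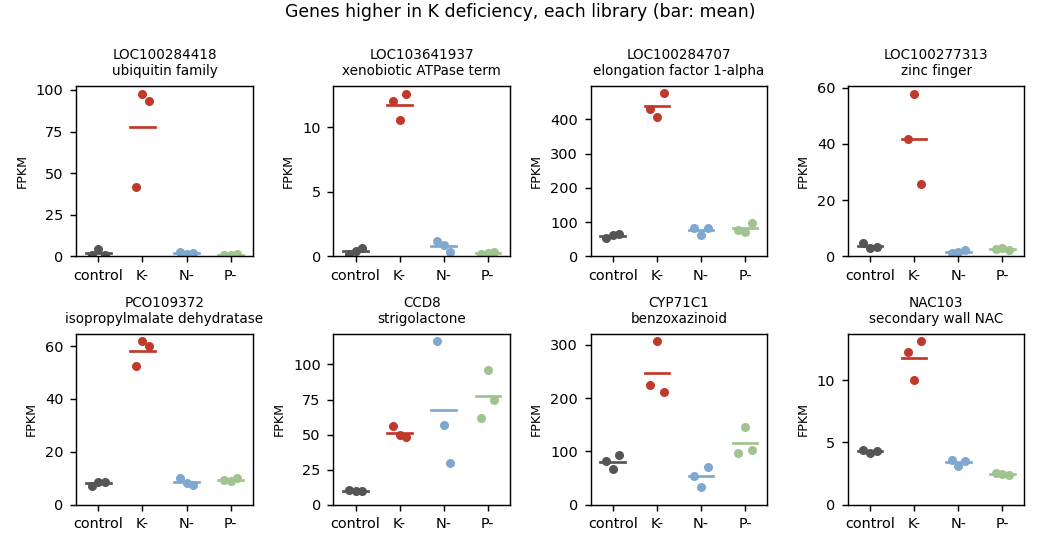
FPKM in each library (points) and group mean (bars) of 8 genes that were higher in potassium deficiency (K-) than in control, with nitrogen (N-) and phosphorus (P-) deficiency beside them. LOC100284418, LOC103641937, LOC100284707, LOC100277313, PCO109372 and NAC103 are high in the potassium-deficient libraries only, whereas CCD8 is high in all 3 deficiencies.

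Part of the genes for leucine synthesis rose. Of 15 tested genes with this annotation, 5 were higher (33.3%) and 1 was lower, with a median log2 change of 0.26. Leucine is made from the precursor of valine by isopropylmalate synthase, isopropylmalate dehydratase and isopropylmalate dehydrogenase, followed by transamination. The large subunit of the dehydratase, PCO109372, was at 7.08, 8.57 and 8.71 FPKM in control and 52.4, 61.8 and 59.9 in potassium deficiency, a 7.15-fold difference that was stable (log2 change 2.70 ± 0.14, adjusted p = 0.00107). The small subunit LOC100286245, chosen after its values were seen, went from 25.5 ± 6.5 to 57.0 ± 2.0 FPKM (SD, n = 3, adjusted p = 0.015). The synthase LOC100280499 went from 8.71 ± 1.47 to 17.9 ± 1.26 FPKM (adjusted p = 0.0136), and TIDP9194, which carries the same annotation, from 5.63 ± 1.12 to 13.2 ± 1.72 (adjusted p = 0.0141).

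PCO109372 was at 8.48 FPKM in nitrogen deficiency and 9.40 in phosphorus deficiency, so the potassium-deficient level was above both (adjusted p = 1.03e-06 and 6.63e-06). LOC100280499 and TIDP9194 were also above both deficiencies, with an adjusted p of 0.000156 and 0.00909 for the former and 0.00172 and 0.0113 for the latter. LOC100286245 was above nitrogen deficiency (22.7 FPKM, adjusted p = 0.00269), and its difference from phosphorus deficiency did not pass (36.8 FPKM, log2 difference 0.64, adjusted p = 0.0785). LOC100280499 did not pass against control without control replicate 1_3 or potassium-deficient replicate 1_3 or 4_6. LOC100286245 and TIDP9194 did not pass without control replicate 1_3 or potassium-deficient replicate 1_3 or 7_9. The adjusted p of these 3 genes then reached 0.0533 to 0.0587.

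On the side of degradation of leucine, valine and isoleucine, 5 of 50 tested genes were lower and 1 was higher. The branched-chain aminotransferase LOC100281255 fell from 8.81, 7.89 and 3.71 FPKM to 1.09, 0.549 and 0.659 (adjusted p = 0.00943). Isovaleryl-CoA dehydrogenase, LOC100217040, which acts in leucine breakdown in mitochondria, fell from 22.7, 24.9 and 24.9 to 9.57, 9.05 and 12.4 FPKM (adjusted p = 0.0073). LOC100283617, which carries the same pathway annotation and is described as the acetyltransferase component of pyruvate dehydrogenase, fell from 24.9 ± 2.33 to 11.2 ± 1.05 FPKM (SD, n = 3, adjusted p = 0.00643). All 3 were stable.

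Genes of carotenoid and strigolactone synthesis changed in both directions. Strigolactones are root-made signals derived from carotenoids through the cleavage enzymes CCD7 and CCD8 and the cytochrome P450 MAX1. CCD8 was at 10.23, 10.01 and 9.796 FPKM in control and 56.4, 49.5 and 48.2 in potassium deficiency, with little spread in either group (log2 change 2.25 ± 0.12, adjusted p = 0.00107). CCD7 went from 2.48, 2.24 and 3.47 to 11.6, 12.9 and 7.74 FPKM (adjusted p = 0.00805), and MAX1b from 2.33, 3.24 and 4.16 to 8.95, 11.3 and 9.42 (adjusted p = 0.00918). Phytoene synthase, psy2, the entry enzyme of carotenoid synthesis, went from 9.30 ± 0.99 to 22.4 ± 3.64 FPKM (SD, n = 3, adjusted p = 0.00854). These 4 genes were stable.

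The direct tests did not set CCD8 apart from the other deficiencies, where it was at 67.6 FPKM in nitrogen and 77.5 in phosphorus deficiency (log2 differences -0.18 and -0.57, adjusted p = 0.81 and 0.323). MAX1b was higher in phosphorus deficiency, at 18.8 FPKM, than in potassium deficiency, at 9.88 (log2 difference -0.87, adjusted p = 0.0125). Of the 26 genes annotated with secondary shoot formation, 7 were higher and 1 was lower.

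Other genes of the carotenoid pathway fell. The beta-carotene hydroxylase HYD3, which leads towards zeaxanthin and abscisic acid, fell from 45.2, 53.4 and 30.8 FPKM to 14.2, 16.8 and 17.4 (adjusted p = 0.0152). The genes for abscisic acid 8'-hydroxylase, which inactivates the hormone, fell as well: IDP1977 from 3.15, 2.32 and 2.28 to 0.261, 0.795 and 0.671 FPKM (adjusted p = 0.0152), and LOC103653298 from 5.47, 4.92 and 2.72 to 1.18, 0.925 and 0.865 FPKM (adjusted p = 0.0161). Without control replicate 1_3 none of these 3 passed (adjusted p of 0.0605 to 0.0621 at most). HYD3 also did not pass without potassium-deficient replicate 1_3 or 7_9, nor LOC103653298 without 4_6 or 7_9. Of the 16 tested genes of the abscisic acid list, 4 were lower and none was higher, with a median log2 change of -0.46. Under the term abscisic acid biosynthetic process 3 of 25 genes were higher and 3 lower. LOC100281136, described as viviparous-14, the name of a cleavage enzyme of abscisic acid synthesis, rose from 0.774, 0.301 and 0.867 to 5.05, 1.997 and 4.88 FPKM (adjusted p = 0.0287). This gene was picked with its values in view. It did not pass without control replicate 1_3 or 4_6 or potassium-deficient replicate 1_3 or 7_9 (adjusted p of up to 0.0942). Over the carotenoid pathway as a whole, 8 of 38 genes were higher and 7 were lower. Among the lower ones LOC103641704, which has no description, was stable (log2 change -1.295).

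Some genes of benzoxazinoid synthesis, the indole-derived defence compounds of maize, were higher. Of 11 tested genes with this annotation 4 rose (36.4%) and none fell, and the median log2 change was 1.16. The cytochrome P450 genes CYP71C1 and LOC103652726, whose products hydroxylate the indole ring system, were the clearest. CYP71C1 was at 81.1, 67.1 and 92.9 FPKM in control and 225, 306 and 212 in potassium deficiency, and LOC103652726 was at 32.8, 26.4 and 36.4 and then 120, 174 and 104 FPKM. Both were highest in replicate 4_6 and both were stable (adjusted p = 0.00677 and 0.00459). CYP71C1 was also above nitrogen deficiency (53.3 FPKM, adjusted p = 0.000386) and phosphorus deficiency (115 FPKM, adjusted p = 0.0268).

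The first enzyme of that pathway, bx1, chosen after its values were seen, was at 98.0, 63.4 and 57.7 FPKM in control and 180, 194 and 116 in potassium deficiency (adjusted p = 0.0496). It passed in none of the 6 fits that leave out a library, with an adjusted p of up to 0.149, nor after median-ratio scaling. The threshold was also missed without a filter on low values, with a pseudocount of 0.1 or 10 and in the fit of all 12 libraries. The same held with the robust option of limma and in the authors' deposited table. The O-methyltransferase Bx7 was at 70.7, 60.9 and 126 FPKM in control and 274, 210 and 189 in potassium deficiency (adjusted p = 0.0324). With a library left out it passed only where that was control replicate 7_9, with an adjusted p of up to 0.114 in the other fits.

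Other enzymes of secondary metabolism rose beside them. Among O-methyltransferases 6 of 23 tested genes were higher and none was lower, with a median log2 change of 0.61. LOC103630607, annotated with this activity, was at 115, 131 and 169 FPKM in control and 496, 513 and 544 in potassium deficiency, and it was stable (adjusted p = 0.00328). Its level in phosphorus deficiency was 501 FPKM, and in nitrogen deficiency 179. LOC100193561, a ZRP4-type enzyme named for its expression in maize roots, went from 164, 135 and 186 to 339, 378 and 407 FPKM (adjusted p = 0.0116). It did not pass without control replicate 1_3 or potassium-deficient replicate 7_9 (adjusted p of up to 0.0536). ZRP4-type genes stand in the root marker list, in which 3 of 15 tested members were higher and none was lower, with a median log2 change of 0.53. Its most abundant member, gpm747, was itself called higher. With a library left out, gpm747 passed only where that was control replicate 7_9 (adjusted p of up to 0.144 in the other fits). It also missed the threshold after median-ratio scaling and by voom. The part of the root marker level in these results was not tested.

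Flavonoid glucosyltransferases were also among the raised genes, with 10 of 38 higher and 1 lower. LOC103653257 rose from 0.051, 0.353 and 0.594 FPKM to 4.04, 9.88 and 5.13 (adjusted p = 0.00698), and LOC100282556 from 23.1, 17.5 and 28.7 to 96.6, 72.7 and 57.0 (adjusted p = 0.0116), both stable. LOC100280876, which shares the description of LOC100282556, anthocyanidin 3-O-glucosyltransferase, was lower and stable (log2 change -4.715). Of 24 germin-like genes annotated with oxalate decarboxylase activity, 6 were higher and 1 was lower. The germin-like LOC100284455, of a family of cell wall proteins, went from 31.8, 44.0 and 59.7 to 148, 133 and 159 FPKM and was stable (adjusted p = 0.00845). LOC103641518, with the same annotation, was among the most abundant raised genes at 404, 386 and 373 FPKM in control and 780, 884 and 767 in potassium deficiency (adjusted p = 0.0154), above nitrogen deficiency (109 FPKM, adjusted p = 9.43e-06) and phosphorus deficiency (175 FPKM, adjusted p = 0.000226). Its call against control was lost without control replicate 1_3 or each of the potassium-deficient libraries (adjusted p of up to 0.0638).

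Dehydrins and late embryogenesis abundant (LEA) proteins, which protect cells during drying and seed maturation, fell in many cases. Of 37 tested members 17 were lower (45.9%) and 2 were higher, and the median log2 change was -0.36. The summed level of the 41 listed members was 8096 to 13600 FPKM in control and 1935 to 2248 in potassium deficiency. Dehydrin 1, dhn1, was the most abundant of them, at 7446, 5058 and 4042 FPKM in control and 283, 162.5 and 418 in potassium deficiency. Control replicate 1_3 was highest, and the groups lay far apart. The difference was 19.2-fold (log2 change -4.31 ± 0.40, adjusted p = 0.00293).

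Other members fell further. The DC-8-type LEA gene LOC100283639 was at 869, 520 and 434 FPKM in control and 14.5, 3.64 and 15.3 in potassium deficiency, a 54.4-fold difference (log2 change -5.79 ± 0.51, adjusted p = 0.00282). The group 3 LEA gene mlg3 went from 898, 609 and 422 to 17.4, 4.07 and 30.1 FPKM (adjusted p = 0.00541), and LOC103641198 from 179, 114 and 82.8 to 2.14, 0.722 and 5.17 (adjusted p = 0.00282). In each of them potassium-deficient replicate 4_6 was the lowest library and control replicate 1_3 the highest. All of these were stable.

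Some genes with seed functions outside the LEA list also fell. Oil body-associated protein OBAP1A was at 48.4, 37.9 and 24.3 FPKM in control and was listed at 0.425, 0 and 0 in potassium deficiency (adjusted p = 0.00107). The 16 kDa oleosin, which coats seed oil bodies, fell from 63.7, 35.4 and 27.8 to 1.63, 0.968 and 3.08 FPKM (adjusted p = 0.00293), and the vicilin-like pco130570 from 4.42 ± 0.91 to 0.366 ± 0.317 (SD, n = 3, adjusted p = 0.00414). The aldose reductase gene AR3, which reduces sugars and aldehydes, fell from 443, 324 and 223 to 10.7, 3.42 and 9.09 FPKM (log2 change -5.31 ± 0.40, adjusted p = 0.00229), and the pore protein gene gpm462 from 831, 669 and 462 to 22.6, 15.3 and 34.7 (adjusted p = 0.00206). These 5 genes were stable. The seed marker list held 4 lower and 3 higher genes of 26 tested, its median log2 change was -0.32, its most abundant member umc2754, a vegetative storage protein, was called higher (236 ± 21.8 to 464 ± 104 FPKM, SD, n = 3, adjusted p = 0.0377), and its summed level given above was not lower in potassium deficiency. With a library left out, umc2754 passed only where that was control replicate 7_9 (adjusted p of up to 0.137 in the other fits), and it missed the threshold after median-ratio scaling. The part of the seed markers in these results was not tested.

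Several of these genes stood lower still in the other deficiencies. The mean of dhn1 was 288 FPKM in potassium deficiency, 25.8 in nitrogen deficiency and 91.4 in phosphorus deficiency, and potassium deficiency was above nitrogen deficiency (log2 difference 3.72, adjusted p = 0.00309), while its difference from phosphorus deficiency did not pass (1.68, adjusted p = 0.102). LOC100279044, of a family that binds phosphatidylethanolamine, fell from 1564, 967 and 936 FPKM in control to 103, 79.2 and 169, and stood at 10.3 in nitrogen deficiency (adjusted p = 0.000825) and 23.0 in phosphorus deficiency (adjusted p = 0.0132). LOC100279043, described as little protein 1, fell from 1773, 1008 and 1074 to 159, 65.1 and 152 FPKM, against 15.4 (adjusted p = 0.00525) and 26.1 (adjusted p = 0.0261) in the other deficiencies. For LOC100283639 the differences of 11.2 FPKM from 4.68 and 5.19 did not pass (adjusted p = 0.256 and 0.415).

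**Figure D4:**
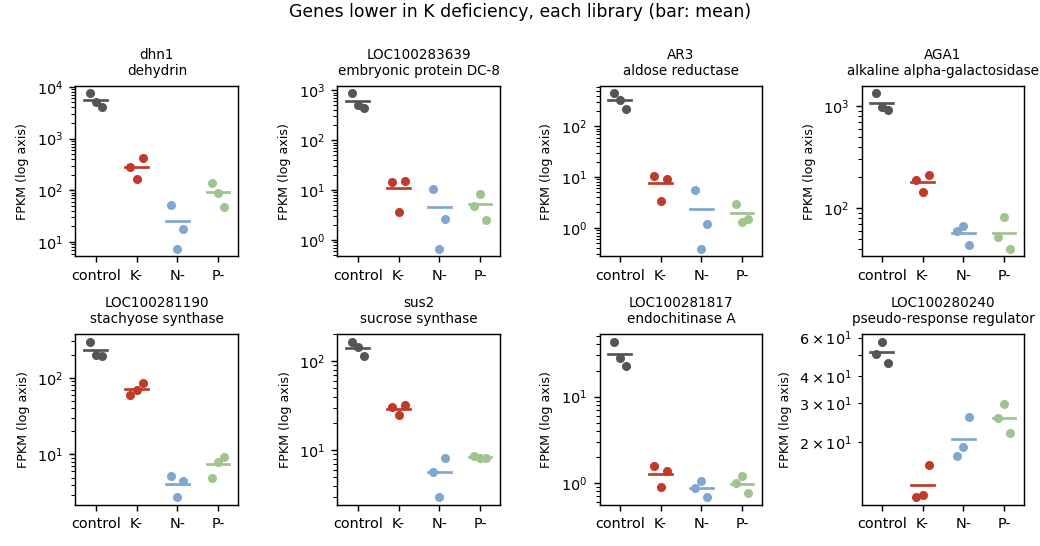
FPKM on a log axis in each library (points), with group means (bars), of 8 genes that were lower in potassium deficiency (K-) than in control. In dhn1, AGA1, LOC100281190 and sus2 the potassium-deficient mean lies between the control and the nitrogen-deficient (N-) mean, whereas in LOC100280240 potassium deficiency is the lowest of the 4 treatments.

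Heat shock proteins and their regulators fell in part. Of 99 tested members of the heat shock and chaperone list 14 were lower and none was higher, with a median log2 change of -0.16. The shares over all tested genes were 3.14% lower and 3.74% higher. The small heat shock protein hsp18a fell from 30.2, 20.1 and 23.9 FPKM to 3.53, 1.31 and 2.78 (adjusted p = 0.00293), and the chloroplast small heat shock protein LOC100283886 from 250, 163 and 209 to 59.8, 52.4 and 65.7 (adjusted p = 0.00435). The HSP70 gene pco094428 fell from 279, 243 and 200 to 61.1, 38.1 and 54.4 FPKM (adjusted p = 0.00333). Among 16 heat stress transcription factors 2 were lower, of which LOC100280828 fell from 21.1, 8.65 and 16.1 to 1.89, 1.55 and 3.34 FPKM (adjusted p = 0.0114). All 4 genes were stable.

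Leaf-type genes were mostly at low levels and in part lower still. The most abundant leaf marker, LOC100281113, averaged 131 FPKM over the 6 libraries. Of 28 tested leaf markers 5 were lower and none was higher, with a median log2 change of -0.24. The change was above 0 in 10 of them and below 0 in 18. In the pathway Photosynthesis 5 of 35 genes were lower and 2 were higher. The photosystem I gene psah1 fell from 8.64, 13.4 and 16.4 FPKM to 1.93, 1.82 and 2.96 (adjusted p = 0.00578), and the chlorophyll-binding protein gene LOC100273427 from 18.8, 14.3 and 12.2 to 1.44, 1.27 and 2.60 (adjusted p = 0.00282). Both were stable.

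Genes of sugar metabolism changed in opposite directions within families. Raffinose-type sugars are soluble reserves of seeds and stressed tissue, built by galactinol and stachyose synthases and broken down by alpha-galactosidases. In the raffinose and trehalose list 5 of 19 tested genes were lower and none was higher. Alkaline alpha-galactosidase AGA1 fell from 1321, 974 and 920 FPKM to 188, 144 and 209 (adjusted p = 0.00282), and stachyose synthase LOC100281190 from 296, 200 and 192 to 60.0, 69.7 and 86.5 (adjusted p = 0.00862). UDP-glucose 4-epimerase LOC542127, which makes the galactose donor, fell from 515, 393 and 354 to 112, 102 and 148 FPKM (adjusted p = 0.00601). Over galactose metabolism 9 of 59 genes were lower and 1 was higher. The named genes were stable and all 3 were above nitrogen and phosphorus deficiency, where LOC100281190 was at 4.17 and 7.45 FPKM (adjusted p = 8.64e-06 and 0.000125).

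Sucrose synthase genes, whose products split sucrose in sink tissues, changed in opposite directions. The gene sus2 fell from 165, 144 and 114 FPKM to 30.4, 24.9 and 32.2 and was stable (adjusted p = 0.00274). In the same libraries sus1 rose from 182, 214 and 238 to 608, 443 and 430 FPKM (adjusted p = 0.0179). The call of sus1 was lost without control replicate 1_3 or potassium-deficient replicate 1_3 or 7_9 (adjusted p of up to 0.0742). Hexokinase si946063f09 fell from 24.1 ± 2.12 to 10.4 ± 1.20 FPKM (SD, n = 3, adjusted p = 0.00571), starch synthase ss1 from 12.6 ± 2.33 to 4.15 ± 1.16 (adjusted p = 0.0129) and phosphofructokinase LOC100191982 from 64.8 ± 20.3 to 10.6 ± 4.95 (adjusted p = 0.0121), all stable. In starch and sucrose metabolism 16 of 131 genes were lower and 7 were higher.

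SWEET transporters, which move sugars across membranes down their gradient, also went both ways. Of 17 genes annotated with sugar transmembrane transport 4 were higher and 6 were lower. LOC103649564 rose from 1.29, 1.57 and 2.44 FPKM to 18.1, 14.5 and 13.5 (adjusted p = 0.00229), SWEET4a (LOC100382256) from 174, 187 and 134 to 351, 364 and 328 (adjusted p = 0.0161) and SWEET13b (LOC100273779) from 6.54, 10.2 and 20.1 to 61.8, 42.1 and 45.5 (adjusted p = 0.0205). SWEET6a (IDP152) fell from 7.90, 5.50 and 8.24 FPKM to 0.576, 0.339 and 0.366 (adjusted p = 0.00206), and LOC100281296 from 30.6, 21.5 and 22.1 to 4.38, 2.24 and 1.39 (adjusted p = 0.00388). The vacuolar-type SWEET16 gene LOC103634637 fell from 480, 341 and 239 to 81.9, 106 and 123.3 FPKM (adjusted p = 0.0163).

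LOC100382256 stood above nitrogen deficiency (168 FPKM, adjusted p = 0.00213) and phosphorus deficiency (140 FPKM, adjusted p = 0.00115), while LOC103649564 was below nitrogen deficiency, at 51.1 FPKM (adjusted p = 0.00209). LOC103649564, IDP152 and LOC100281296 were stable. LOC100382256 did not pass without control replicate 1_3 or each potassium-deficient library, LOC100273779 not without control replicate 4_6 or potassium-deficient replicate 1_3 or 7_9, and LOC103634637 not without potassium-deficient replicate 1_3. The adjusted p then reached 0.0599, 0.075 and 0.0617.

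In nitrogen metabolism 3 of 14 tested genes of assimilation rose and 1 fell, with a median log2 change of 0.64. Asparagine synthetase genes, whose products load nitrogen into the transport amide asparagine, changed in opposite directions. The gene asn4 rose from 29.7, 33.0 and 31.7 FPKM to 88.8, 64.6 and 64.3 (adjusted p = 0.00933), and asn3 fell from 48.2, 48.6 and 49.5 to 21.2, 25.9 and 22.5 (adjusted p = 0.00605). Both were stable, and neither passed in the fit of all 12 libraries. Glutamine synthetase GLN6 rose from 28.3, 31.1 and 47.1 to 95.9, 72.6 and 75.3 FPKM (adjusted p = 0.0228) and gln1 from 20.6 ± 2.12 to 35.3 ± 1.54 (SD, n = 3, adjusted p = 0.0188). Neither glutamine synthetase passed without control replicate 1_3 or each potassium-deficient library, nor GLN6 without control replicate 4_6 (adjusted p of up to 0.0805 for GLN6 and 0.0713 for gln1).

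The shunt through gamma-aminobutyric acid turns glutamate into succinate, and genes for its first and last enzymes fell. Glutamate decarboxylase LOC100284394 fell from 440, 310 and 288 FPKM to 129, 119 and 127 (adjusted p = 0.00867), and succinate semialdehyde dehydrogenase LOC100280779 from 63.7, 49.9 and 36.9 to 10.2, 8.27 and 9.27 (adjusted p = 0.00282). Both were stable. Over alanine, aspartate and glutamate metabolism 7 of 59 genes were lower and 4 higher. Amino acid transporters went both ways. Of 17 genes under the term amino acid transport 4 were lower and none was higher, while of 45 under amino acid transmembrane transporter activity 6 were higher and 3 lower. The histidine and lysine transporter type LHT1, LOC100281437, fell from 48.3, 51.5 and 28.9 to 8.64, 12.2 and 13.0 FPKM (adjusted p = 0.00925) and the family member pco130308(330) from 45.2, 30.2 and 22.3 to 4.86, 2.64 and 5.12 (adjusted p = 0.00463), both stable. The amino acid permease LOC100383250, chosen after its values were seen, rose from 20.7, 24.3 and 18.8 to 73.2, 62.0 and 83.8 FPKM (adjusted p = 0.00298), and LOC100281553, described as AAP6 and chosen likewise, from 7.29 ± 1.19 to 35.3 ± 9.19 (SD, n = 3, adjusted p = 0.00388), both stable as well.

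Chitinases, which cut the chitin of fungal walls, fell in 7 of 29 genes with that annotation and rose in 2. Endochitinase A LOC100281817 fell from 43.0, 27.6 and 22.7 FPKM to 1.58, 0.902 and 1.37, a 24.2-fold difference (log2 change -3.77 ± 0.25, adjusted p = 0.00173). A second endochitinase A, LOC100283098, fell from 386, 302 and 228 to 80.5, 96.7 and 87.5 FPKM (adjusted p = 0.0064). LOC103640665, annotated with the same activity, fell from 46.03, 28.2 and 30.8 to 3.16, 1.35 and 3.88 FPKM (adjusted p = 0.00293). They were stable. Of 54 class III peroxidases 3 were higher and 4 were lower, beside 3.74% higher and 3.14% lower over all tested genes. Peroxidase 59, LOC100280077, was at 3.31, 3.32 and 7.13 FPKM in control and 22.9, 24.9 and 23.4 in potassium deficiency and was stable (adjusted p = 0.00505).

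Some genes of sulfur uptake and assimilation rose. Of 12 tested sulfate genes 3 were higher and 1 was lower. The gene aprl1, for an adenosine phosphosulfate reductase of sulfate reduction, was at 60.7, 42.4 and 50.04 FPKM in control and 170, 131 and 158 in potassium deficiency and was stable (adjusted p = 0.00516). The sulfate transporter 3.5 gene LOC100382058 rose from 26.1, 18.2 and 32.2 to 59.8, 70.1 and 79.0 FPKM (adjusted p = 0.0135), losing its call without potassium-deficient replicate 7_9 (adjusted p = 0.0548). It was above nitrogen deficiency (7.40 FPKM, adjusted p = 2.7e-05) and phosphorus deficiency (31.8 FPKM, adjusted p = 0.0168). In glutathione metabolism, which draws on the cysteine made from sulfate, 9 of 99 genes were higher and 2 were lower. Glutathione transferase gst6 rose from 64.0, 78.3 and 93.0 to 226, 257 and 214 FPKM and was stable (adjusted p = 0.00514).

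Under the term phosphate ion transport 5 of 15 genes rose and none fell, with a median log2 change of 0.93. The list of phosphate transport and SPX genes, matched by name, held 2 higher and 2 lower of 17, with a median of 0.36. Its lower members included LOC100191817, described as a glycerol-3-phosphate transporter, which fell from 11.9, 6.21 and 6.89 to 1.28, 0.9998 and 0.988 FPKM and was stable (adjusted p = 0.00448). The transporter LOC732717 was at 95.8, 130 and 149 FPKM in control and 559, 275 and 449 in potassium deficiency (adjusted p = 0.0189). Its mean of 428 FPKM was close to the 431 FPKM of phosphorus deficiency (log2 difference -0.05, adjusted p = 0.94) and above the 17.0 FPKM of nitrogen deficiency (adjusted p = 2.52e-05). It did not pass against control without control replicate 1_3 or potassium-deficient replicate 1_3 or 7_9 (adjusted p of up to 0.0699). LOC103630022, with the same annotation and no description, rose from 0.720, 0.772 and 0.940 to 6.90, 4.52 and 3.74 FPKM and was stable (adjusted p = 0.00605).

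Among 25 genes of iron uptake and storage 4 rose and 3 fell, beside 3.74% higher and 3.14% lower over all tested genes. Ferritins, which store iron in plastids, fell: fer1 from 225, 202 and 168 FPKM to 73.2, 59.0 and 71.9 (adjusted p = 0.00452) and fer2 from 24.1, 20.7 and 19.6 to 8.14, 9.10 and 8.40 (adjusted p = 0.00394). The vacuolar iron transporter LOC100383509 rose from 3.22, 3.67 and 3.45 to 7.14, 7.77 and 8.22 FPKM (adjusted p = 0.00745). All 3 were stable. The iron uptake gene ys1, the carrier of iron chelated by phytosiderophores, went from 0.935 ± 0.131 to 2.88 ± 0.85 FPKM (SD, n = 3, adjusted p = 0.0302) and, with a library left out, passed only where that was potassium-deficient replicate 4_6 (adjusted p of up to 0.109 in the other fits).

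Some cellulose synthases and tubulins rose by modest folds. Of 23 cellulose synthases in the list 5 were higher and none was lower, with a median log2 change of 0.52. The genes CesA12 (29.8, 24.2 and 35.7 to 89.0, 57.0 and 59.5 FPKM, adjusted p = 0.0261) and cesa11 (50.2, 47.5 and 60.1 to 134, 106 and 84.3, adjusted p = 0.0293) were highest in potassium-deficient replicate 1_3. Of 33 genes annotated as structural constituents of the cytoskeleton 8 were higher and none was lower. Beta tubulin tub7 was at 178, 170 and 211 FPKM in control and 345, 354 and 342 in potassium deficiency (adjusted p = 0.0194). Tubulins have near-identical copies.

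These wall and cytoskeleton calls were less stable. CesA12, cesa11 and tub7 did not pass without control replicate 1_3, control replicate 4_6 or potassium-deficient replicate 1_3, nor cesa11 and tub7 without 4_6, nor CesA12 and tub7 without 7_9 (adjusted p of up to 0.0868, 0.103 and 0.0831). Among the genes with the largest gain in FPKM, the gene comt, for an O-methyltransferase that acts in lignin synthesis, was at 783, 776 and 929 FPKM in control and 1776, 1625 and 1444 in potassium deficiency (adjusted p = 0.0396). The aquaporin pip2b, a water channel of the plasma membrane, was at 228, 197 and 346 FPKM and then 707, 447 and 595 (adjusted p = 0.0462). With a library left out both passed only where that was control replicate 7_9, with an adjusted p of up to 0.155 for each in the other fits. Of 28 aquaporins 2 were higher and none was lower, beside 3.74% higher and 3.14% lower over all tested genes. Their median log2 change was 0.49.

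Among transcription factors, some members of several families rose. NAC103, described as a secondary wall NAC factor, was at 4.43, 4.18 and 4.29 FPKM in control and 12.2, 9.997 and 13.2 in potassium deficiency, stable and with little spread in either group (log2 change 1.26 ± 0.14, adjusted p = 0.00452). It was above nitrogen deficiency (3.41 FPKM, adjusted p = 1.88e-05) and phosphorus deficiency (2.46 FPKM, adjusted p = 2.05e-05). The AP2/EREBP factors EREB101 (8.02, 4.88 and 8.40 to 30.5, 30.3 and 33.7 FPKM, adjusted p = 0.00317) and EREB71 (14.7, 8.01 and 14.3 to 44.8, 44.9 and 47.8, adjusted p = 0.00601) were stable and were also above both other deficiencies, with an adjusted p of 0.0179 and 0.0166 for EREB101 and 0.00751 and 0.00458 for EREB71. Of 42 bHLH factors 5 rose and none fell, of 71 ethylene-responsive factors 5 rose and 1 fell, of 108 MYB factors 8 rose and 3 fell, and of 49 NAC factors 3 rose and 1 fell. The shares over all tested genes were 3.74% higher and 3.14% lower, and no family was tested as a set.

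Annotations of daily rhythms were not uniform in direction. Of 34 tested genes annotated with rhythmic process 6 fell (17.6%) and none rose, with a median log2 change of -0.15. Of 69 annotated with circadian rhythm 4 rose and none fell. In the pathway Circadian rhythm - plant 1 of 52 genes was higher and 3 were lower. These counts stand beside 3.74% higher and 3.14% lower over all tested genes. LOC100280240, described as a pseudo-ARR-B factor, of a family that holds clock regulators, fell from 50.6, 57.4 and 45.9 FPKM to 11.2, 11.4 and 15.7 (log2 change -1.94 ± 0.17, adjusted p = 0.00282). It was below nitrogen deficiency (20.6 FPKM, adjusted p = 0.0476) and phosphorus deficiency (25.8 FPKM, adjusted p = 0.0102) as well. LNK1, LOC100276227, which in Arabidopsis acts with clock activators, fell from 50.2, 45.9 and 45.8 to 22.3, 25.4 and 25.4 FPKM (adjusted p = 0.00805). Both were stable. No source used here gives the hour of harvest.

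In many other groups the calls were few and lay near the shares over all tested genes or below them. Of 84 other calcium signalling genes 2 were higher and 1 was lower, of 38 jasmonate genes 2 were higher and none was lower, of 79 auxin genes 3 and 2, and of 109 genes that produce or remove reactive oxygen 3 and 2. Of 30 nitrate and ammonium transporter genes 1 was higher. Of 45 histone genes none passed in limma, with 8 higher and 3 lower at an unadjusted p under 0.05, and voom called 2 higher and 3 lower. Of 55 DNA replication and cell cycle genes none passed in limma either, with 6 higher and none lower at an unadjusted p under 0.05, and voom called 1 higher. Among 53 WRKY factors 2 were higher, and among 37 proton pumps and cation exchangers 1 was higher and 2 were lower. Over all tested genes 3.74% were higher and 3.14% lower.

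**Figure D5:**
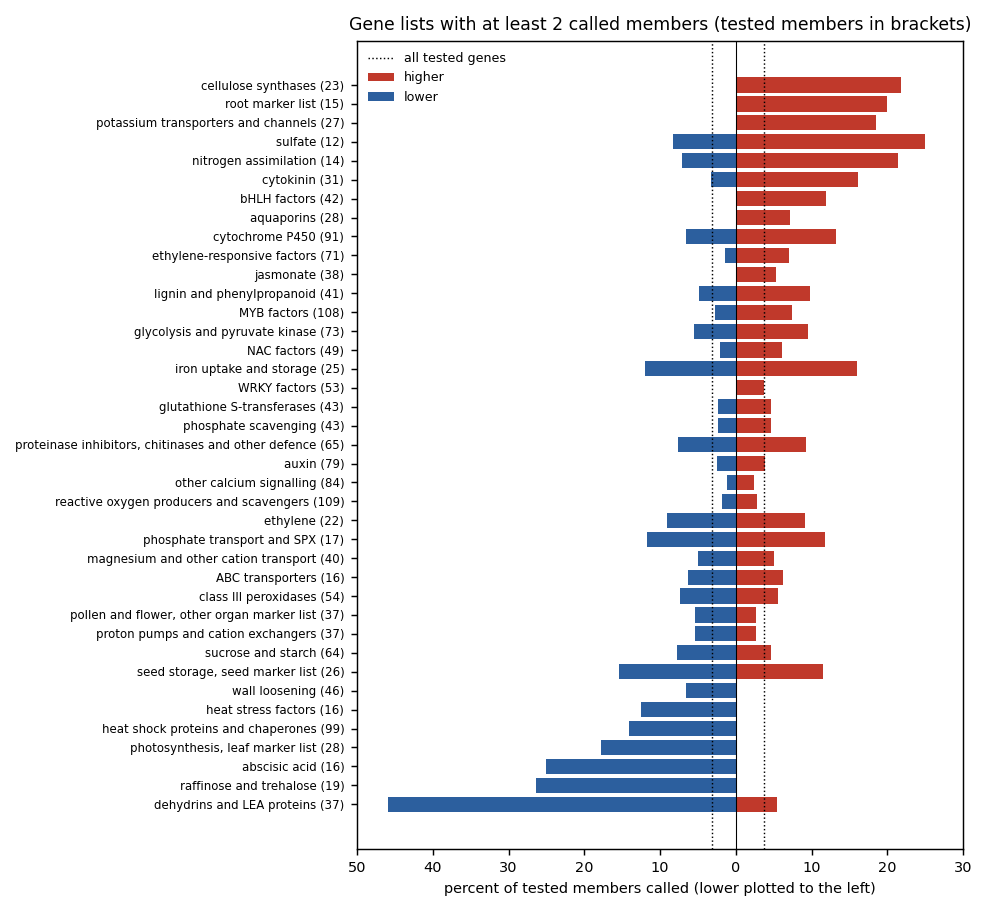
Percent of tested members higher (red, to the right) and lower (blue, to the left) in potassium deficiency for gene lists with at least 2 genes that passed, with the number tested in brackets and the share over all tested genes dotted (3.74% higher, 3.14% lower). Dehydrins and LEA proteins reach 45.9% lower, and cellulose synthases, with 5 of 23, lead the lists that hold higher genes only.

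The direct tests against the other deficiencies do not contrast with the control. Between potassium and nitrogen deficiency 9.98% of tested genes differed, and between potassium and phosphorus deficiency 9.52% (limma, 12 libraries). Both tests share the potassium-deficient libraries, which also chose the higher and lower genes, so the counts that follow are a description. Of all tested genes 2.49% lay above both other deficiencies and 0.591% below both. Of the 874 higher genes, 148 were also above both nitrogen and phosphorus deficiency and 1 was below both. Of the 732 lower genes, 13 were also below both and 83 were above both. Taken singly, 260 of the higher genes were above nitrogen deficiency and 30 below it, and 289 were above phosphorus deficiency and 11 below it. Of the lower genes 39 were below and 156 above nitrogen deficiency, and 45 were below and 140 above phosphorus deficiency.

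The 148 genes held, besides those named above, the flavonol sulfotransferase LOC100280082 (24.0 ± 3.51 FPKM in control, 91.7 ± 14.0 in potassium deficiency, 15.9 in nitrogen and 15.7 in phosphorus deficiency, adjusted p against control 0.00293). The 13 genes that were lowest in potassium deficiency held LOC100285362, described as FPF1 after a flowering-promoting factor, at 25.8, 21.6 and 19.1 FPKM in control and 7.05, 6.88 and 9.42 in potassium deficiency (adjusted p = 0.00615), against 25.8 and 26.2 in the other deficiencies. They also held the co-chaperone gene LOC100285455, of the DnaJ type, at 20.7 ± 2.23 FPKM in control and 9.03 ± 0.935 in potassium deficiency (adjusted p = 0.00662), against 17.6 and 17.9. These 3 genes were stable and were chosen after their values were seen. Without single potassium, nitrogen or phosphorus libraries the 148 became 93 to 146 and the 13 became 8 to 14. They were 93 and 8 without potassium-deficient replicate 1_3 and 98 and 8 without potassium-deficient replicate 7_9.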

How the data were processed

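Total RNA from roots was sequenced by the submitters with standard Illumina protocols, per the labels. Aligner, genome build and annotation: not given in the sources used here. Values per library are FPKM computed by the authors, per the file headers. The authors also deposited a mean normalized count (signal) for each group of 3 libraries; the deposited fold is the ratio of the group means, the deposited log2 column its log2, and the deposited p-value columns are those of the authors' DESeq comparison, per the file headers. The control columns were identical in the 3 deposited tables. Of the gene IDs, 87.4% were found in the RefSeq gene table of assembly Zm-B73-REFERENCE-NAM-5.0; names and annotations come from the deposited table, in which 19661 genes have a description, 23745 a GO term and 6013 a pathway.

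The main test was limma 3.58.1 in R 4.3.3 with an intensity trend on log2(FPKM + 1), a pseudocount of 1, 3 potassium-deficient against 3 control libraries, for genes with FPKM of at least 0.5 in 3 of the 6, with Benjamini-Hochberg adjustment over all 23349 genes and a threshold of 0.05. Fold changes on this scale understate the change of low genes; a fold is given as the ratio of the group means in FPKM. Direct contrasts with nitrogen and phosphorus deficiency came from a fit of all 12 libraries. Whole reads were recovered from the deposited group means within a tolerance of 1e-07 reads for 100% of control and 99.84% of potassium-deficient genes, and 0.41% of potassium-deficient reads were taken from FPKM; they served for depth and for voom as an alternative.

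The members, the 45 gene lists, matched by pattern to names and descriptions, and the tests were chosen with earlier results of these data known, and lists and terms of 10 to 500 tested genes are described by counts and medians without a test. A pattern can take a gene by spelling, as nbp35 in the ethylene list, and 1 gene counted in the potassium list is not reported here. Named were the genes with the largest changes or differences in FPKM, every tested potassium and CBL or CIPK gene, and the genes with the smallest p of each list and of the terms with the highest share of calls, 332 in all; any other gene is marked as chosen with its values in view. Libraries were not paired in the main test, since the labels do not say whether like numbers belong together. Alternatives were other scalings, filters, pseudocounts, models and thresholds, and leaving out each library; the script was tested on simulated data. Python 3.11.15, pandas 2.3.3, numpy 2.4.6 and matplotlib 3.10.9 were used. A listed FPKM of 0 may be an estimate that failed, since each library had 5 to 13 such genes with 50 or more recovered reads.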

Additional observations from a re-analysis of the deposited data

How the results depend on the processing

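Of 304 called genes that were followed, which leave out LOC100383250 and LOC100281553, none changed direction under any alternative run. In the main test none of them overlapped between the groups. A left-out library or another filter, pseudocount, threshold or model on the same FPKM could therefore not reverse their direction. For those runs the unchanged direction is no check. Of the 304 genes, 129 passed whichever library was left out and 288 passed after median-ratio scaling. The number was 264 by the authors' deposited table, 277 by voom on recovered reads, 228 without a filter on low values and 214 with the replicate block. Leaving out single libraries gave 233 to 1153 higher and 297 to 667 lower genes, and, in the direct contrasts with nitrogen and phosphorus deficiency, 93 to 146 genes above both and 8 to 14 below both. Fewer higher genes passed without a filter on low values (559). Voom called 1115 lower genes. An adjusted p under 0.01 left 158 higher and 230 lower genes, and a log2 change of at least 1 left 469 and 465. With a pseudocount of 10, 8 genes lay below both other deficiencies; the alternatives for these direct contrasts were chosen after seeing the data. Deviations from the group means of like-numbered libraries had r = 0.13, 0.345 and -0.171, against -0.407 to 0.315 for unlike numbers. With 3 libraries per group these values cannot settle whether the numbers mark a shared block, and the main test did not pair the libraries. A fit with the replicate block called 569 higher and 529 lower genes. The authors' deposited table called 731 genes higher and 912 lower at its adjusted p. The limits are 3 libraries per group, FPKM values without a stated annotation, gene copies that share reads, and library differences that move with the groups. The cause of the other changes was not tested; leaving out a library leaves fewer samples.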
